A study of Mus musculus with 18 samples.

Results

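Gm49708 and Gm45889 are noncoding loci of the mouse genome, measured here by RNA sequencing in 18 libraries of testis germ cells. They are 2 of the 13218 loci in the deposited table. They were chosen by symbol, because earlier results of these data showed them high in the type labelled priSG-A and in plpSC replicates 1 and 2, and low in pacSC. Their levels in those 3 types are therefore given as a description, with no test. Germ cells from testes of ICR mice were separated by STA-PUT sedimentation, and each of the 6 labels has 3 libraries. The youngest mice, at postnatal day 6, gave priSG-A, and mice of day 9 gave priSG-B. Days 14 and 21 gave plpSC and pacSC, and days 35 and 56 gave rST and elST, so type and age cannot be told apart. The labels name no treatment or allele and leave the names unexplained. By common usage SG is a spermatogonium (a premeiotic germ cell), SC a spermatocyte (in meiosis) and ST a spermatid (after meiosis). Nothing in the labels ties a replicate to an animal of its own, so a p-value here measures spread between libraries, which may be technical.

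Long noncoding RNAs are transcripts with no known protein product, and many of those annotated in the mouse are made in the testis. Some arise within transposable elements, sequences that have copied themselves through the genome. In the class with long terminal repeats, the RNA begins and ends with the same short repeat, and related copies of one element lie on several chromosomes. Male germ cells keep such elements silent by DNA methylation and by small RNAs, which is textbook knowledge. No repeat annotation was used here, and neither locus is assigned to an element by what follows.

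Gm49708 (ENSMUSG00000116656.1) lies on the minus strand of chromosome 16, from 90341595 to 90349642 (mm10), and spans 8048 bases. GENCODE M21 gives it 2 transcripts. Gm49708-202 is 1236 bases long in 2 exons, exon 1 from 90349421 to 90349642 and exon 2 from 90341595 to 90342608. Gm49708-201, of 918 bases, starts at the same base, keeps the intron sequence that follows exon 1 and ends at 90348725. The ends of Gm49708-202 are shown because they carry the same letters: its starting 45 bases and its closing 45 bases are identical. In the lines below, taken from the M21 transcript sequences, capitals mark that repeat. The exon is chr16:90349421-90349642 and the closing stretch chr16:90341595-90341684, both on the minus strand of GRCm38.
Gm49708-202 exon 1: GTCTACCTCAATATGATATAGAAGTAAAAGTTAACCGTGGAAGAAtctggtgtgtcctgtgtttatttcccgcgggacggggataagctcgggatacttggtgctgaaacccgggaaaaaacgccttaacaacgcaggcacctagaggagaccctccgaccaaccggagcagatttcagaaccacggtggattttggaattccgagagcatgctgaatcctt
Gm49708-202 closing bases: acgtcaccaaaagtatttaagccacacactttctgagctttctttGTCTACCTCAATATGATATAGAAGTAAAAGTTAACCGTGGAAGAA
Of 134529 M21 transcripts of 200 bases or more, 14 have 20 or more identical bases at both ends. Gm49708-201 and the 2 transcripts of Gm45889 have no such repeat.

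The last 90 bases of Gm49708-202 also stand, letter for letter, at the end of transcripts of 3 other noncoding loci on other chromosomes. They are Gm50321 on chromosome 19 (named AC132253.9 in M21), Gm47547 on chromosome 14 and Gm47101 on chromosome 10. In an alignment with BLAST, 8 other annotated genes shared 200 bases or more with Gm49708 at 95% identity or more. Exon 2 of Gm49708-202, 1014 bases, matched Gm50321 at 98.9% identity and Gm47547 at 97.9%, over its whole length. Gm8113 matched 1006 bases at 96.9% and Gm49083 matched 744 bases at 98.8%. The matches of Itga6 (an integrin gene), Gm47101 and Gm48116 were of 276, 275 and 246 bases, in the closing part of Gm49708-202. The remaining gene, Gm49709, is the locus on the other strand that overlaps exon 1 of Gm49708 itself. Of the 50-base words of Gm49708-202, 79.4% occur in transcripts of other genes, on either strand, against 19.8% for Gm49708-201. Both shares count the overlap with Gm49709, which is the same place in the genome read on the other strand and not a copy elsewhere. For Gm49708-201 that overlap is a match of 221 bases, and 172 of its words are shared. How the authors' counting divided reads that fit several of these loci is not given in the sources used here, so the level of Gm49708 is uncertain to that extent.

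Gm45889 (ENSMUSG00000109936.1), a lincRNA (a long noncoding gene between coding genes), lies on the plus strand of chromosome 7, from 142283210 to 142290418. Gm45889-201 is 1057 bases long in a single exon. Gm45889-202 is 2358 bases long, with 7 bases in exon 1 and 2351 bases in exon 2 (142288068 to 142290418). No gene shared 200 bases with it at 95% identity. The longest match was Gm14226, a gene annotated as coding on chromosome 2, with 2406 aligned bases at 85.4% identity to Gm45889-202. The closing part of Gm45889-202 also matched other genes, such as Gm37819 (485 bases at 88.2%) and D10Wsu102e (404 bases at 90.1%, in the opposite direction). Beside 52 genes for Gm49708, Gm45889 shared an aligned stretch of 100 bases or more with 38 other genes. Of its 50-base words, 0% in Gm45889-201 and 2.21% in Gm45889-202 occur in transcripts of other genes, so its level rests mostly on sequence that no other annotated transcript holds. The map of annotated transcripts sets the 2 loci side by side.

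**Figure D1:**
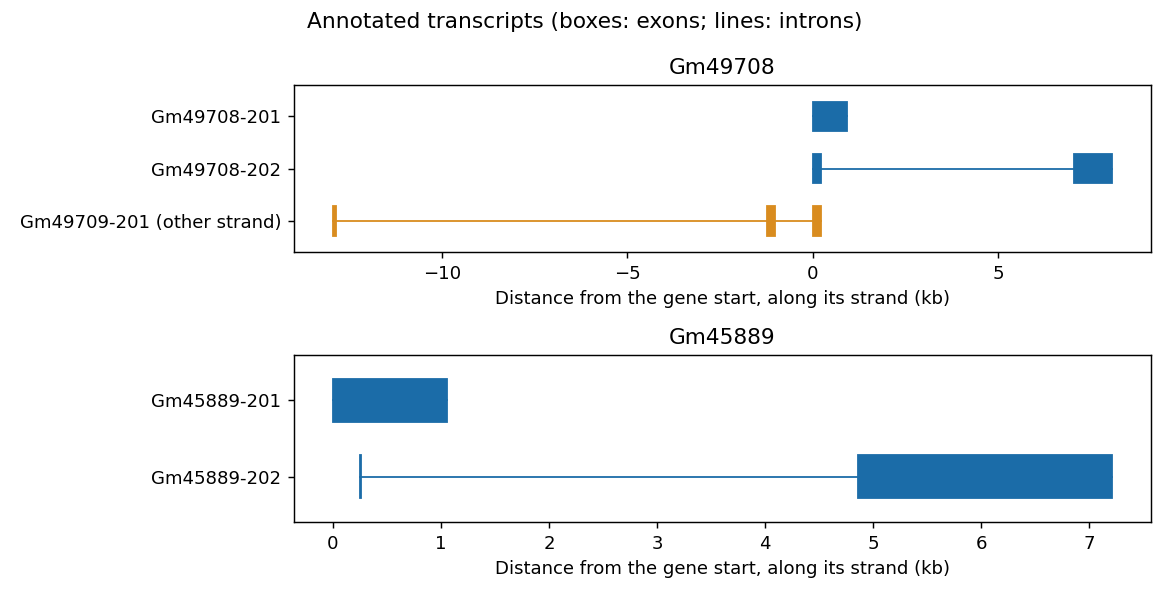
Annotated transcripts of Gm49708, its other-strand neighbour Gm49709 and Gm45889, by distance in kb from the start of each locus along its own strand; boxes are exons and lines are introns. Each locus has a single-exon transcript at its start and a 2-exon transcript whose long exon lies at the far end, and Gm49709 covers nearly all of exon 1 of Gm49708.

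The RefSeq table of promoters (GRCm38.p6, 250 bases before to 50 after the start) matched 1 of the 2 loci, Gm45889. Its promoter, chr7:142282964-142283263 on the plus strand, is shown because Gm45889 has the wider range of levels over the libraries.
Gm45889 promoter: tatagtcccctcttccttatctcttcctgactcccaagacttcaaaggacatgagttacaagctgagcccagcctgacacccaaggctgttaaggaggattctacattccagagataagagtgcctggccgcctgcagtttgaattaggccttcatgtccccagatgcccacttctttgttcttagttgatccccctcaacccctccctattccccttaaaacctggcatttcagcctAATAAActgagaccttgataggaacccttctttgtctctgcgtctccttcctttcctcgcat
Capitals mark AATAAA, at position 239 counted from the 5′ end, a word that occurs on either strand in 19.6% of 32851 promoters of the same length. Searched on both strands, the TATA box word TATAAA does not occur in it (13.6% of promoters hold it). The same was found for the CCAAT box (37.4%), for the GC box word GGGCGG (35.7%), for the E-box word CACGTG (7.15%) and for the cAMP response word TGACGTCA (1.79%). AACNGNC, the core bound by MYB factors, occurs once on the minus strand, as in 32.8% of promoters on either strand.

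Before the values, the libraries were compared across the 4117 loci that reached 1 FPKM (a count of fragments scaled by transcript length and by the fragments mapped in the library) in at least 3 libraries. The depth behind the FPKM scale, inferred from the steps of low values, was 31.5 to 91.5 M (mega) fragments. For 13 of the 18 libraries the closest library carried another type label. The library labelled rST replicate 1 was closest to elST replicate 1 (Pearson's r of 0.95 across loci), and had r of 0.03 and 0.07 with the other rST libraries. The library labelled plpSC replicate 3 was closest to elST replicate 2 (r of 0.96) and had r of 0.07 and 0.08 with its own type. The library labelled priSG-A replicate 3 was closest to pacSC replicate 1 (r of 0.80) and had r of 0.56 and 0.60 with its own type. The library labelled elST replicate 1 had r of 0.20 and 0.41 with its own type. The library labelled pacSC replicate 3 was closest to rST replicate 3 (r of 0.95) and had r of 0.60 and 0.61 with its own type. The level of the ribosomal RNA-derived locus AY036118 splits the libraries into a set of 6 at 7.25 to 36.2 FPKM (elST replicate 3, pacSC replicates 1 and 2 and all of priSG-B) and a set of 12 at 1998 to 13911 FPKM. The labels name no batch. In bulk libraries such as these, fewer cells of a type and less RNA per cell cannot be told apart.

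Gm49708 was among the most abundant noncoding loci in the day 6 and day 9 types. It stood at 149, 72.6 and 33.0 FPKM in priSG-A replicates 1, 2 and 3, the 16th, 31st and 97th highest of the 4117 loci. In priSG-B it stood at 27.3, 28.1 and 26.7 FPKM, a mean of 27.4 ± 0.673 (SD, n = 3). The priSG-A libraries are spread over 4.50 times from lowest to highest, and the priSG-B libraries over 1.05 times. All 3 priSG-A libraries are above all 3 of priSG-B. The lowest of priSG-A is replicate 3, the library closest to pacSC replicate 1.

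Within plpSC the libraries did not resemble each other. Gm49708 stood at 191 and 96.6 FPKM in replicates 1 and 2, the 13th and 27th highest, and at 2.43 FPKM in replicate 3, a 78.4-fold range. In pacSC it stood at 5.98, 5.89 and 1.93 FPKM, so that the pacSC libraries lie on both sides of plpSC replicate 3 and below the other plpSC libraries. Gm49708 was not absent from pacSC, where it ranked above 48.7 to 75.8% of the loci tested.

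Both spermatid labels held a single library with a high value. The rST libraries gave 68.8, 1.08 and 2.10 FPKM of Gm49708. The elST libraries gave 51.0, 2.15 and 5.89 FPKM. Replicate 1 of each type was within the range of the priSG-A libraries, and replicates 2 and 3 were no higher than the highest pacSC library.

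Gm45889 was less abundant per length in every library and spanned a wider range. The priSG-A libraries gave 43.9, 19.5 and 6.52 FPKM. The priSG-B libraries gave 9.11, 11.9 and 7.55 FPKM, a mean of 9.52 ± 2.20 (SD, n = 3). Here priSG-A and priSG-B overlap, since priSG-A replicate 3 is below the 3 priSG-B libraries. In plpSC it stood at 33.9, 20.4 and 0.120 FPKM, a 284-fold range that again sets replicate 3 apart.

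The 3 pacSC libraries gave alike and low values of Gm45889, at 0.208, 0.171 and 0.147 FPKM, a mean of 0.175 ± 0.0305 (SD, n = 3). The rST values were 19.2, 0.255 and 0.197 FPKM, and the elST values 8.79, 0.0559 and 0.192. Replicate 1 of both spermatid types is again the high library, and the other 4 lie between 0.0559 and 0.255 FPKM. In pacSC, Gm45889 ranked above 10.1 to 11.8% of the loci tested, against 86.7 to 98.7% in priSG-A.

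**Figure D2:**
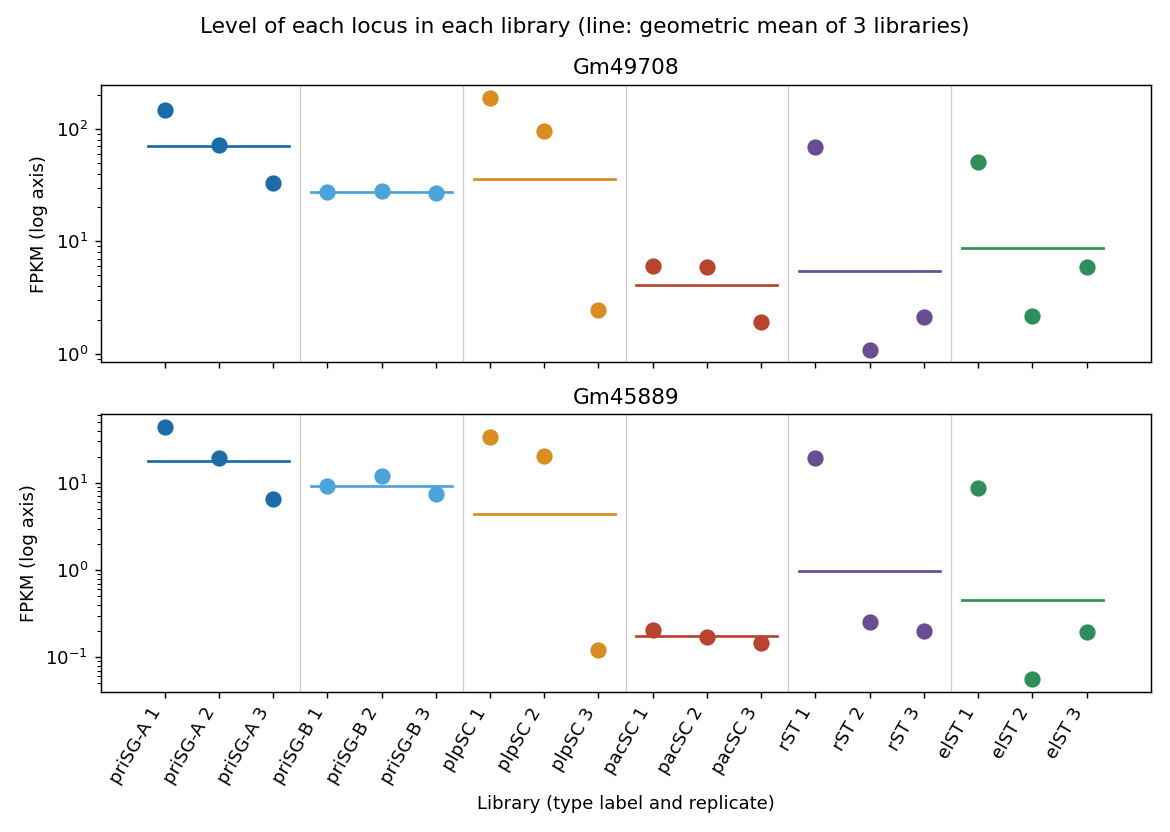
FPKM of Gm49708 (top) and Gm45889 (bottom) on log axes in each of the 18 libraries, coloured by type label; points are libraries and lines the geometric mean of the 3 libraries of a type. In plpSC, rST and elST the libraries divide into high and low ones, while the 3 priSG-B libraries lie close together at 26.7 to 28.1 FPKM for Gm49708.

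The low values of Gm45889 rest on few fragments. From the inferred depth and the lengths of its transcripts, 0.0559 FPKM in elST replicate 2 stands for at most 5.06 fragments, and 0.208 FPKM in pacSC replicate 1 for 11.9 to 31.4, depending on the transcript. No order is read among those low libraries. The lowest level of Gm49708, 1.08 FPKM in rST replicate 2, stands for 37.4 to 54.1 fragments.

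The same 10 libraries are highest for both loci: all of priSG-A and priSG-B, plpSC replicates 1 and 2, and replicate 1 of rST and of elST. The widest step between neighbouring libraries lies below these 10 for each locus. For Gm49708 it is 4.47-fold, from 26.7 FPKM in priSG-B replicate 3 to 5.98 FPKM in pacSC replicate 1. For Gm45889 it is 25.6-fold, from 6.52 FPKM in priSG-A replicate 3 to 0.255 FPKM in rST replicate 2. Part of this split was fixed by the choice of the loci as high in priSG-A and plpSC replicates 1 and 2 and low in pacSC. The description used on selection, a loss in meiotic libraries, holds for the pacSC label by that choice. It does not hold for the type labels in general. The plpSC label, also usually a spermatocyte name, has 2 high libraries of 3, and both postmeiotic labels have 1 high library each.

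By mean of log2(FPKM + 1), the order of types for Gm49708 was priSG-A (6.17), plpSC (5.32), priSG-B (4.83), elST (3.38), rST (2.94) and pacSC (2.38). For Gm45889 it was priSG-A (4.25), priSG-B (3.37), plpSC (3.24), rST (1.64), elST (1.21) and pacSC (0.23). These means are levels, not differences. Every pair of neighbours in both orders has libraries that overlap, so the order between neighbours is not established. The SDs on this scale were 3.11 for plpSC and 0.03 for priSG-B in Gm49708, and 2.68 and 0.30 in Gm45889.

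The ratio of the 2 loci was not the same in all libraries. The FPKM of Gm49708 was 3.39, 3.73 and 5.05 times that of Gm45889 in the priSG-A libraries and 2.99, 2.36 and 3.54 times in priSG-B. In pacSC it was 28.8, 34.4 and 13.1 times, above all priSG-A and priSG-B libraries. Within plpSC it was 5.62 and 4.74 times in replicates 1 and 2 and 20.3 times in replicate 3. The rST ratios were 3.58, 4.25 and 10.6, and those of elST 5.80, 38.5 and 30.7. The shared sequence of Gm49708 and the few fragments of Gm45889 both bear on the ratio in the low libraries, and their part in it was not tested.

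The tests compared only the 3 types that the choice of the loci did not use: priSG-B, rST and elST. Their spread was pooled over all 18 libraries, so the types used in the choice enter each SE and p-value. With only the 2 compared types fitted, the SEs of Gm49708 and Gm45889 were 1.74 and 1.26 in elST against rST. They were 1.35 and 1.18 in rST against priSG-B and 1.01 and 0.91 in elST against priSG-B, and neither locus passed. In elST against rST, Gm49708 differed by 0.44 ± 1.49 (SE) on the log2(FPKM + 1) scale (where changes of low loci come out too small), with a 95% interval of -2.73 to 3.61 (limma adjusted p = 0.972). Gm45889 differed by -0.43 ± 1.32, with an interval of -3.24 to 2.37 (limma adjusted p = 0.967). Limma called 0 of the 4117 loci in this comparison, 0% of those tested, also without its trend and robust options, and 78 (1.89%) had an unadjusted p under 0.05. These intervals are wide enough to hold a difference of several-fold either way.

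In rST against priSG-B, limma called 103 loci, 2.5% of those tested (3 higher and 100 lower in rST), and neither of the 2 was among them. Gm49708 differed by -1.89 ± 1.49 (95% interval -5.06 to 1.28, limma adjusted p = 0.344) and Gm45889 by -1.73 ± 1.32 (-4.54 to 1.07, limma adjusted p = 0.326). For both loci, 2 of the 3 rST libraries were below all priSG-B libraries and replicate 1 was above them. Over all loci the median log2 fold change was 0.53, and 0.06 after quantile normalization, so both values are further below the median locus than below 0. When replicate 1 of rST and of elST were left out, since each was unlike the rest of its label, Gm49708 fell by 3.48 (limma adjusted p = 0.0379) and Gm45889 fell by 3.08 (limma adjusted p = 0.0370). With that choice, made with these values known, limma called 2133 loci, 51.8% of those tested (1471 higher and 662 lower), a background near which a call of the 2 loci is not a result about them. Without rST replicate 1 alone the values were the same and the 2 loci did not pass (limma adjusted p = 0.0601 and 0.0621), with 1807 loci called, 43.9% (1237 higher and 570 lower).

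In elST against priSG-B, 45 loci were called, 1.09% of those tested (1 higher and 44 lower in elST), again with neither locus. Gm49708 differed by -1.45 ± 1.49 (95% interval -4.61 to 1.72, limma adjusted p = 0.465) and Gm45889 by -2.17 ± 1.32 (-4.97 to 0.64, limma adjusted p = 0.266). The 2 elST libraries below priSG-B were again replicates 2 and 3. For Gm45889, elST replicate 1, at 8.79 FPKM, lay within the priSG-B range of 7.55 to 11.9 FPKM. Without elST replicate 1, Gm49708 differed by -2.61 and Gm45889 by -3.21, and neither passed (limma adjusted p = 0.186 and 0.0855), with 712 loci called, 17.3% of those tested (536 higher and 176 lower). When rST replicate 1, which is outside this comparison, was left out as well, the values were the same. Gm45889 then passed (limma adjusted p = 0.0387) and Gm49708 did not (limma adjusted p = 0.105), with 1755 loci called, 42.6% (1393 higher and 362 lower). With a pseudocount of 0.1 in place of 1, Gm45889 differed by -3.68 in elST against priSG-B and by -2.90 in rST against priSG-B (limma adjusted p = 0.205 and 0.235). After quantile normalization Gm49708 differed by -2.25 in elST against priSG-B (limma adjusted p = 0.428). The 2 comparisons with priSG-B share its libraries. All 3 priSG-B libraries are in the set with low AY036118 and all 3 rST libraries in the other. With that set as a term, Gm49708 and Gm45889 differed by -1.71 ± 2.26 and -2.42 ± 1.98 (SE) in rST against priSG-B (limma adjusted p = 0.660 and 0.518) and by -1.33 ± 1.89 and -2.63 ± 1.66 in elST against priSG-B (limma adjusted p = 0.695 and 0.336). The sole elST library of the low set, replicate 3, stood at 5.89 and 0.192 FPKM for Gm49708 and Gm45889, below the 3 priSG-B libraries of the same set.

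**Figure D3:**
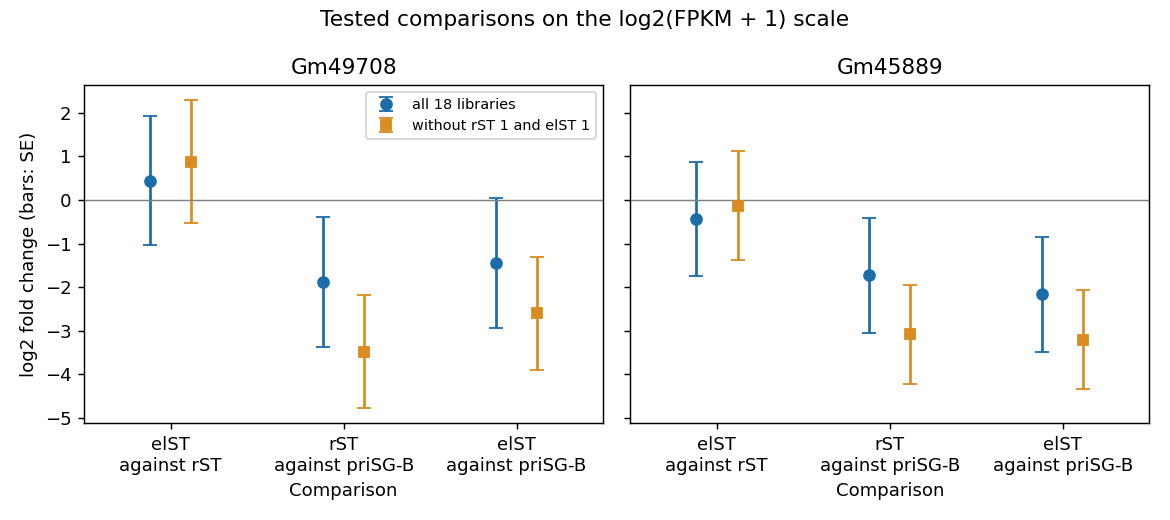
Log2 fold changes of Gm49708 (left) and Gm45889 (right) on the log2(FPKM + 1) scale in the 3 tested comparisons, with bars of 1 SE, for all 18 libraries (circles) and without rST replicate 1 and elST replicate 1 (squares). Leaving out those 2 libraries moved Gm49708 in rST against priSG-B from -1.89 to -3.48.

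Some markers of cell types varied with the levels of the 2 loci. The table holds 1 of the 7 spermatid markers listed, 1700027A15Rik, which overlaps the spermatid gene Tnp1. Its priSG-B range was 0.0549 to 0.0708 FPKM. The rST libraries gave 0, 4539 and 3175 FPKM and the elST libraries 0.570, 875 and 73.0, so the libraries labelled rST and elST replicate 1 lack the level of the others. The plpSC libraries gave 0, 0 and 874 FPKM, the pacSC libraries 75.8, 84.9 and 1195, and the priSG-A libraries 0.139, 0 and 11.8. Within priSG-A, plpSC and pacSC, replicate 3 was thus the highest for this marker and the lowest for both loci, though the pacSC values of Gm45889 rest on few fragments. In pacSC, replicate 3 is also the sole library with high AY036118, while every priSG-A and plpSC library has it high. Of the libraries below the widest step of Gm49708, those with low AY036118 spanned 5.89 to 5.98 FPKM. Those with high AY036118 spanned 1.08 to 2.43 FPKM. For Gm45889 the corresponding ranges overlapped. The part of the AY036118 set in the pacSC levels was not tested. The r of 1700027A15Rik over the 18 libraries was -0.93 with Gm49708 and -0.91 with Gm45889. Of 7 peritubular and stromal markers the table holds 3, H19, Meg3 and Rian, none of them at 0 in any library. Their summed level was 49.2 to 51.0 FPKM in priSG-B, 5.71 to 16.7 in rST and 3.55 to 33.3 in elST, and 5.06 to 272 in priSG-A, 3.79 to 48.7 in plpSC and 4.47 to 8.34 in pacSC. In rST and priSG-B the sum followed H19 and Rian, while Meg3 did not follow: the rST libraries gave 2.99, 2.47 and 2.07 FPKM of it and the priSG-B libraries 2.24, 2.23 and 1.85. The part of these cells in the levels of Gm49708 and Gm45889 was not tested. None of the 29 listed markers of the remaining cell types is in the table.

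Likeness to other loci was measured by Pearson's r over the 18 libraries on log2(FPKM + 1), as a description, since libraries share type, depth and preparation. Gm49708 and Gm45889 had r of 0.97 with each other, and each was behind 21 or 22 other loci in the other's order of likeness. Both were chosen for the same pattern in priSG-A, plpSC and pacSC, so their r with each other is partly set by that choice. Among the 4116 other loci, 7.51% had r of 0.9 or more with Gm49708 and 6.90% with Gm45889, and the medians were -0.65 and -0.68. By this measure 309 and 284 loci share the pattern.

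The locus most like Gm49708 was Gm50321 (chromosome 19, 9828899 to 9836897), with r of 0.99. It matches Gm49708 in the last 90 bases and over the whole of exon 2, as Gm47547 (r of 0.98) also does. The libraries gave 28.1, 21.9 and 9.14 FPKM of Gm50321 for priSG-A, 9.90, 9.90 and 10.3 for priSG-B, 34.9, 25.5 and 0.908 for plpSC, and 2.17, 2.38 and 0.576 for pacSC. The rST values were 21.5, 0.263 and 0.376 FPKM and the elST values 13.3, 0.560 and 2.44, so replicate 1 is again the high one. The next 4, Gm36527, A930001M01Rik, Gm43817 and Gm43679, had r of 0.98 to 0.99, reached at most 1.55 to 5.07 FPKM and shared no stretch of 100 bases with it.

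Of the 8 genes that share sequence with Gm49708, 6 are in the table and 5 reached the level for testing. All 5 had r between 0.95 and 0.99 with it, where 94 of the 4116 other loci had r of 0.95 or more. Gm49709 is among the 5 by its overlap on the other strand, not as a copy elsewhere. Gm47101 gave 89.3, 80.9 and 42.2 FPKM for priSG-A and 19.8, 24.6 and 10.5 for pacSC, and its lowest library was at 3.89. Gm47547 gave 14.5, 14.4 and 5.05 FPKM for priSG-A and 1.80, 1.82 and 0.361 for pacSC. Gm49083 gave 9.12, 9.60 and 3.56 FPKM for priSG-A and 1.45, 1.47 and 0.198 for pacSC. In each of these loci the priSG-A libraries are above the pacSC libraries. Since reads from these loci can fit more than one of them, their likeness is not independent of that of Gm49708. Gm48116, the sixth, did not exceed 0.285 FPKM in any library.

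**Figure D4:**
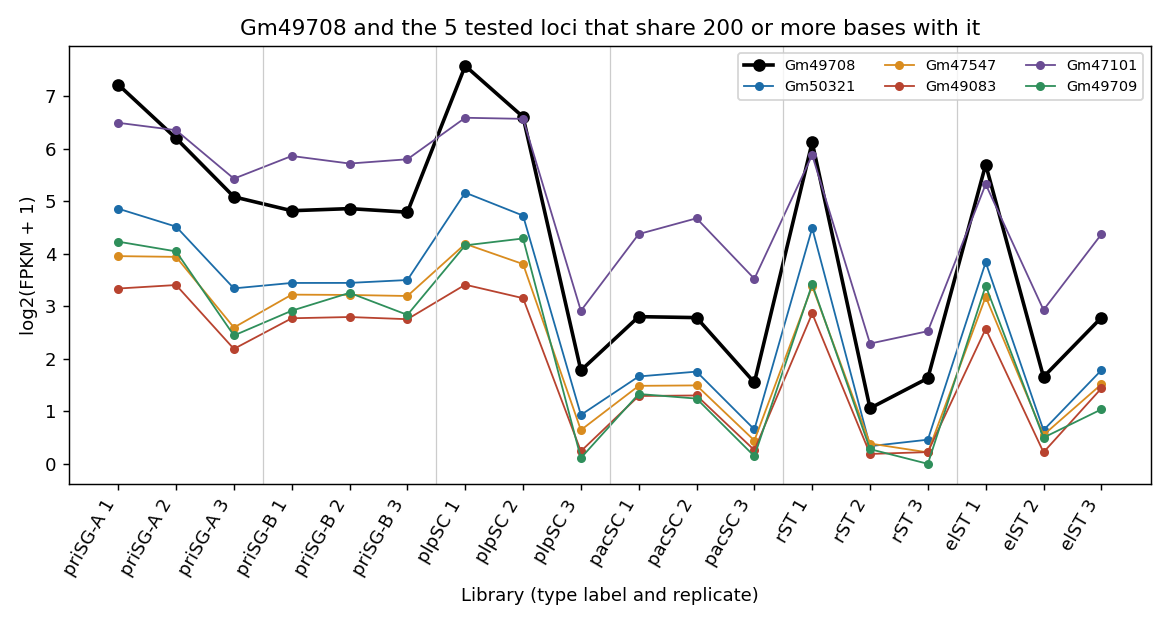
Level as log2(FPKM + 1) of Gm49708 (black) and of the 5 tested loci that share 200 or more bases with it at 95% identity, in each of the 18 libraries. Each line is lower in plpSC replicate 3, in pacSC and in replicates 2 and 3 of rST and elST than in its other libraries. Gm47101 stays highest of the 6 in those libraries.

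Gm49709 (chromosome 16, 90349417 to 90362580), a lincRNA on the plus strand, overlaps 216 bases of exon 1 of Gm49708. Its libraries gave 17.8, 15.5 and 4.45 FPKM for priSG-A, 6.55, 8.56 and 6.15 for priSG-B, 16.9, 18.6 and 0.0805 for plpSC, and 1.52, 1.37 and 0.106 for pacSC, with r of 0.98. Whether strand was used in the counting was not given in the sources used here, so reads of the overlap may belong to either locus. The other noncoding loci within 100 kb did not follow: Gm49707 and Gm49710 did not reach the level for testing, and had r of -0.84 and -0.30. The coding genes Scaf4 and Hunk, 57.1 and 36.4 kb away, are not in the table.

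The locus most like Gm45889 was AU020206 (chromosome 7, 75769038 to 75782099), a lincRNA far from it on the same chromosome, with r of 0.99 and no shared stretch of 100 bases. Its libraries gave 18.8, 16.3 and 4.88 FPKM for priSG-A and 0.607, 0.231 and 0.382 for pacSC. Gm37137, Gm48678, B230319C09Rik and 5830462I19Rik followed with r of 0.98 to 0.99, and none of them shared sequence with it or exceeded 2.86 FPKM. The 16 annotated genes within 100 kb of Gm45889 include keratin-associated protein genes (Krtap5-1, Krtap5-3, Krtap5-4 and Krtap5-5), Ifitm10 and Ctsd, which encodes the lysosomal protease cathepsin D, and none is in the table. The imprinted noncoding gene H19 lies 285 kb beyond Gm45889 on the other strand, outside the 100 kb used for neighbours. Its r with Gm45889 over the 18 libraries was 0.89, and 284 loci (6.90%) had r of 0.9 or more.

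A list of 40 known long noncoding RNAs was compared in the same way. Of these, 30 were tested, and their median r was 0.73 with Gm49708 and 0.70 with Gm45889. In list order, H19, Meg3, Rian and Mirg had r of 0.83, 0.72, 0.75 and -0.69 with Gm49708. In all, 2 had r of 0.9 or more with Gm49708, Malat1 (0.91) and Firre (0.94), or 6.67% of the list against 7.51% of all loci. The same 2 passed that level with Gm45889, at 0.94 and 0.97. Malat1 is an abundant nuclear transcript, and Firre is an X-linked RNA that acts in nuclear organization. Pvt1, a noncoding gene beside Myc, ran the other way, with r of -0.91 with each locus. In rST against priSG-B, the list's 32 rows (some symbols stand on more than 1 row) had a median log2 fold change of -1.21 beside 0.53 over all loci (-2.17 beside 0.06 after quantile normalization), and limma called Rmrp, the RNA of RNase MRP, higher and Ftx, of the X-inactivation centre, lower. Every priSG-B library lists Rmrp at 0. In elST against priSG-B the same 2 were called and the median was -0.82 beside 0.68 (-1.69 beside 0.07 after quantile normalization), and in elST against rST none was called, with a median of 0.40 beside 0.17.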

How the data were processed

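The authors deposited 1 table of FPKM values with 1 column per library. HISAT2, StringTie and the mm10 build are named, without versions, per the submitters' processing notes. Libraries were made from total RNA with the Illumina TruSeq kit, per the labels' protocols. The annotation, strand setting, filters and treatment of reads that fit several loci were not given in the sources used here.

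Identifiers matched GENCODE M21 for 13191 of 13218 rows without their version. Loci that reached 1 FPKM in 3 or more libraries (4117) were tested as log2(FPKM + 1) with limma 3.58.1 in R 4.3.3 (trend and robust, 18 libraries, 1 coefficient per type, two-sided, Benjamini-Hochberg over all tested loci, threshold 0.05). Intervals are 95% intervals of that fit. Depth was inferred from whole steps of low values in 3226 single-exon loci. Within a tolerance of 0.05, 98.0 to 99.3% of those values were whole. Sequences were compared with BLAST 2.17.0. Python 3.11.15, numpy 2.4.6, pandas 2.3.3 and matplotlib 3.10.9 were used.

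The 2 loci, the lists and the tests were chosen with earlier results of these data known. Beside both loci, the rule for named genes took the 5 tested loci most like each, genes within 100 kb and the list of known long noncoding RNAs. The loci that share sequence, Malat1, Firre, Pvt1 and AY036118 were picked with their values known. The tests did not pair libraries by replicate number, and a replicate block was fitted only as an alternative. Residuals of same-numbered elST and rST libraries correlated across loci (r of 0.85, 0.82 and 0.13 for replicates 1, 2 and 3). The comparisons with priSG-B had no such pattern. Each residual is taken from the mean of its type. Replicate 1 of rST and of elST, unlike the rest of their labels, therefore also moves the residuals of replicates 2 and 3. The 3 values are not independent, and no pairing is read from them. Alternatives were another pseudocount, other filters, quantile normalization, limma without trend and robust estimation, the 2 types alone, a replicate block, the AY036118 set as a term and each library left out in turn. Leaving out rST and elST replicate 1 together was added after seeing the data.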

Additional observations from a re-analysis of the deposited data

How the results depend on the processing

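Over 90 alternative values of the 6 member tests, 81 kept direction and side of the threshold, 3 newly passed it and 6 changed sign. The 3 that passed all leave out rST replicate 1 and elST replicate 1: -3.48 for Gm49708 and -3.08 for Gm45889 in rST against priSG-B, and -3.21 for Gm45889 in elST against priSG-B. The sign changes all lie in elST against rST, and the cause was not tested beyond the library left out. Gm49708 went to -0.72 without elST replicate 1, and to -0.50 and -0.21 without rST replicates 2 and 3. Gm45889 went to 0.13 and 0.04 without elST replicates 2 and 3, and to 0.91 without rST replicate 1. Leaving out 1 library gave ranges of -0.72 to 2.03 and -1.48 to 0.91 in elST against rST, -3.48 to -0.95 and -3.08 to -1.04 in rST against priSG-B, and -2.61 to -0.58 and -3.21 to -1.60 in elST against priSG-B, for Gm49708 and Gm45889. In elST against rST, a pseudocount of 0.1 gave -0.78 for Gm45889, quantile normalization gave 0.21 for Gm49708, and the AY036118 set as a term gave -0.20 for Gm45889. The limma adjusted p of the member tests ranged over all alternatives from 0.0370 to 1.

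Counts of called loci moved more. They are out of 4117 tested loci except where the filter was changed. With a pseudocount of 0.1, rST against priSG-B called 23 loci and elST against priSG-B 1. Without a filter 12224 loci were tested, and the 3 comparisons (elST against rST, rST and elST against priSG-B) called 1, 206 and 130. With 5 FPKM 1744 loci were tested, and the last 2 comparisons called 24 and 10. With only the 2 types compared they called 2 and 0. Quantile normalization gave 110 in elST against priSG-B, and the AY036118 set as a term gave 472 (410 higher, 62 lower). In rST against priSG-B that term gave 105 (80 higher, 25 lower), against 3 higher and 100 lower without it. Without rST replicate 1 and elST replicate 1 the counts against priSG-B were 2133 and 1755. Leaving out 1 library gave 0 to 1, 27 to 1807 and 15 to 712, the highest without rST replicate 1 and elST replicate 1 respectively. The replicate block was a term shared by same-numbered libraries of all 6 types. With it, Gm49708 differed by 0.44 ± 1.13 and Gm45889 by -0.43 ± 0.99 in elST against rST, with 0 loci called. The block gave 152 and 53 loci in the comparisons with priSG-B and changed no call of either locus.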
